A study of Drosophila melanogaster with 2 samples.

Results

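CG7786 is a predicted transcription factor of Drosophila melanogaster, and 409 of the 4045 peaks in the authors' final list of its binding regions had their summit in an intron, neither at a promoter nor far from one. A summit, the highest point of a peak, counted when it lay inside an annotated gene, in no annotated exon, and more than 2000 and at most 6000 bp from the closest transcription start site (TSS) of any gene. The choice used position alone, not peak strength. Both libraries came from whole embryos of mixed sex, collected from 0 to 24 h, of 1 strain that carries a CG7786 transgene fused to eGFP. They are replicates 2 and 3 of 1 group, so every tissue and stage is mixed and there is no second condition. One label gives an antibody against GFP and another gives CG7786, and the sources do not say which of these is right. Chromatin was broken by sonication into pieces of 200 to 800 bp. Read numbers, not given in the sources used here, leave the depth unknown. Nothing in peak lists checks the tissue, the fusion protein or the antibody. No label says how separately the embryos of the 2 replicates were collected.

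CG7786 belongs by sequence prediction to the PAR group of basic leucine zipper (bZIP) proteins, dimers that grip the DNA through a basic region and pair through a zipper of leucines. PAR proteins are known to prefer the palindrome-like site TTAYGTAA, where Y is C or T. Introns of fly developmental genes, above all long introns near the 5′ end, are known to hold many enhancers, the sequences at which such factors steer transcription from a distance.

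The sequences below were read from the Release 6 genome (dm6), plus strand, 200 bases centred on the summit, and show what the results turn on. CG32486, Tlk and Raf carry the 3 strongest peaks of the set. CG33158 and aop show a short word that recurs on both sides of the summit. In these 5 sequences capitals mark the PAR site or one of the 10 recurrent 7-base words described further on. In the sequence from for, capitals mark the PAR site alone, in the one from S the forkhead site GTAAACA alone, and in the one from bves the most frequent 12-base word.
CG32486 chr3L:3060683-3060882: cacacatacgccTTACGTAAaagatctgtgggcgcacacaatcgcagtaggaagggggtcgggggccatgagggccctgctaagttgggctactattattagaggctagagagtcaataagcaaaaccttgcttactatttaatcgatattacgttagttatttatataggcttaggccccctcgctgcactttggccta
Tlk chrX:3742142-3742341: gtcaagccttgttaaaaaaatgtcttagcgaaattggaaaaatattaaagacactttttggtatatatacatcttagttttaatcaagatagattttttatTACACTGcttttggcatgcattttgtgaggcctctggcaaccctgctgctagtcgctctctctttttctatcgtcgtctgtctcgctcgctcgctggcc
Raf chrX:2297636-2297835: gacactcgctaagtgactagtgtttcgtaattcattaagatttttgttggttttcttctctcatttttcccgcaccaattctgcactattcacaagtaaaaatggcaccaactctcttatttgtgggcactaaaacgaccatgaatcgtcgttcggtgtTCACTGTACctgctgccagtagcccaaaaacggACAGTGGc
CG33158 chr3L:16480466-16480665: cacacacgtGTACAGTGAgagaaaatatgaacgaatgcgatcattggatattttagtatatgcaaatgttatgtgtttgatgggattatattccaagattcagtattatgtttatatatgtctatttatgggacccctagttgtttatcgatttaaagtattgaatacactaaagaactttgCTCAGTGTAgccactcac
aop chr2L:2163546-2163745: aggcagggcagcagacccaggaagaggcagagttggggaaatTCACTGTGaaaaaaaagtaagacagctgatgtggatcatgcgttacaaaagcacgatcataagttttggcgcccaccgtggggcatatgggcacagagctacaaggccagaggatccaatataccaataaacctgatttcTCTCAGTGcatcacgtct
for chr2L:3628923-3629122: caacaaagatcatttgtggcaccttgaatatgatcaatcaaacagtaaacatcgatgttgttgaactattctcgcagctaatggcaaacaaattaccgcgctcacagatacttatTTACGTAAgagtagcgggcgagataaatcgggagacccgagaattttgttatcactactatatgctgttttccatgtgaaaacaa
S chr2L:1072293-1072492: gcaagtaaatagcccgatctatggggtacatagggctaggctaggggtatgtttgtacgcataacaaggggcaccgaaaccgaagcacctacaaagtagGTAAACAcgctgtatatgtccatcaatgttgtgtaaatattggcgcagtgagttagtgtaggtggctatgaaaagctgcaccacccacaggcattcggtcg
bves chrX:21059097-21059296: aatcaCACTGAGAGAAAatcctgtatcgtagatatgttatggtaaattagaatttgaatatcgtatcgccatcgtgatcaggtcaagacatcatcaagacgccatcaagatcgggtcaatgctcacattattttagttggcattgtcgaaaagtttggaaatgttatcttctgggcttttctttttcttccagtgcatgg

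The strongest peak of the set lay in the first intron of CG32486 at chr3L:3060625-3060967, with a signal value of 1088, the authors' score on the scale of their peak caller. It ranked 32 in the whole list, 29 in replicate 2 (signal value 442.1) and 34 in replicate 3 (651.3). The nearest TSS was 5704 bp away and belonged to the neighbouring gene CG16753. This peak held the PAR site 84 bp from its summit. Each list has its own scale, so signal values of the replicates are given as ranks within their lists and not compared in size.

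The second peak, at chrX:3742026-3742405 in a 41450 bp first intron of Tlk, the gene of the Tousled-like kinase that acts in chromatin assembly, had a signal value of 1047. It ranked 33 in replicate 2 and 36 in replicate 3. The third, at chrX:2297541-2297882 in Raf, the kinase that passes the signal from Ras to MEK, had 857.7 and ranked 54 and 48. Of the 100 strongest peaks in the whole list these were the 3 that belong to the set. The replicates placed the leading peaks at nearly the same ranks.

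The members next in strength included several in regulatory genes. The peak in upSET, which encodes a SET-domain chromatin protein, had a signal value of 539.7 and ranked 128 in replicate 2 and 122 in replicate 3. In Pits, whose product binds the corepressor Sin3A, the value was 455.5 with ranks of 191 and 166. Hr4, a nuclear receptor gene of the ecdysone response, had 448.0 with ranks of 193 and 182, and a further peak of 351.0 with ranks of 278 and 369. For aop, also called Yan, the ETS repressor that opposes Ras signalling, it was 417.4 with ranks of 145 and 317. All of these ranked within the first 400 of both lists.

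A peak of 444.7 lay where CG33158 and aos overlap. The summit was 3084 bp from the TSS of aos, which encodes Argos, the secreted inhibitor of the EGF receptor, inside its span. By the rule for hosts, which takes the longest protein-coding gene, the peak was credited to CG33158. Of the 409 summits, 19 lay inside more than 1 gene.

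Others among the 20 strongest repeated members lay in Dys (407.8), the dystrophin gene, CHES-1-like (398.8), a forkhead factor gene, and Pp2C1 (374.2), a protein phosphatase gene. Evi5 (369.1), a Rab GTPase-activating protein gene, Smr (356.9), which encodes a nuclear corepressor, and Eip63E (351.5), a cyclin-dependent kinase gene, followed. The rest were in CG12769 (467.5), CG32264 (416.8), CG34417 (415.1), a second site in Raf (405.8) and babos (385.6). Of the 20, 15 lay in a first intron and 11 on the X chromosome.

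**Figure D1:**
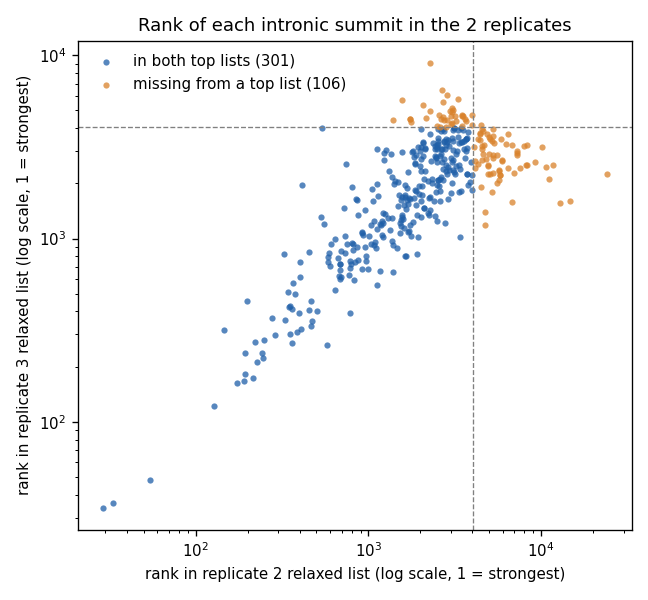
Rank of each of the 407 intronic summits with an entry in both relaxed lists, replicate 2 on the x axis and replicate 3 on the y axis, both logarithmic, with 1 the strongest. Dashed lines mark rank 4045. The points narrow towards the strongest ranks, and the 301 members in both top lists fill the lower left.

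How firmly the replicates repeated these summits can be read from the 4045 strongest entries of each. Of the members, 301 (73.6%, 95% exact interval 69.0 to 77.8%) had a summit within 200 bp in both, beside 77.5% of the whole list. A further 38 were found in replicate 2 alone, 69 in replicate 3 alone and 1 in neither. The share was 76.4% for intronic summits 0.5 to 2 kb from a TSS, 68.3% for those beyond 6000 bp and 80.4% at TSSs. Because the list was itself built from the replicates, its shares reflect that selection too. Intervals here cover counting error only, and peaks are not replicates of a condition.

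Repetition followed strength. In order of strength, all 103 of the strongest members (signal values from 182.8 to 1088) were in both lists, then 97.1% of the next 102, 73.5% of the 102 after them and 23.5% of the weakest 102 (79.5 to 96.4). Across the 407 members with an entry in both lists, Spearman's rank correlation of the signal values was 0.707. It was 0.741 for the 583 nearer intronic summits, 0.613 for the 291 farther ones and 0.765 for the 2220 at TSSs, each across peaks of the same 2 libraries. A summit in raw, a regulator of JNK signalling, ranked 1248 in replicate 3 and had no entry in replicate 2, and the same held for a weaker one in CG13101 (rank 2457).

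The members were of middling strength. Their median signal value was 122.95, with quartiles of 96.7 and 182.8, beside 131.7 for nearer intronic summits, 113.1 for farther ones and 136.2 at TSSs. Of the members 185 (45.2%) stood among the 2022 strongest peaks of the whole list. Within the set the median hardly moved with distance, from 121.95 at 2 to 3 kb to 117.9 at 5 to 6 kb.

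Peaks thinned out with distance from the TSS. Eligible introns, meaning all sequence that meets the position rule, came to 16.1 Mb and held 25.5 summits per Mb (95% Poisson interval 23.1 to 28.1). The nearer intronic sequence held 51.2 per Mb (47.1 to 55.5) and the farther 11.6 (10.3 to 13.0). Inside the set the density was 28.8 per Mb (24.5 to 33.8) at 2 to 3 kb, 26.9 at 3 to 4 kb, 22.0 at 4 to 5 kb and 21.5 (16.5 to 27.5) at 5 to 6 kb. These inner intervals overlap from one step to the next.

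At the limits, summits in NFAT (1979 bp, signal value 211.0) and fru (1993 bp, 202.1) fell just outside, and those in px (2004 bp, 144.0) and lncRNA:CR44320 (2007 bp, 279.1) just inside. At the far end Pvf3 (5948 bp, 127.1) and babos (5969 bp, 80.7) were inside, and CG4928 (6052 bp, 87.8) and Glut4EF (6069 bp, 173.5) outside.

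By chromosome, the X held most: 106 summits, 32.6 per Mb of eligible intron (26.7 to 39.5), with a median signal value of 142.3. Arm 2L followed with 26.5 per Mb (20.9 to 33.1), then 3R with 24.1 (19.4 to 29.7), 3L with 24.1 (19.1 to 30.0) and 2R with 21.5 (16.4 to 27.8). The interval of the X overlaps those of the other 4 large arms. The small chromosome 4 held none in 0.23 Mb, which allows up to 16.0 per Mb. No arm was tested against another.

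**Figure D2:**
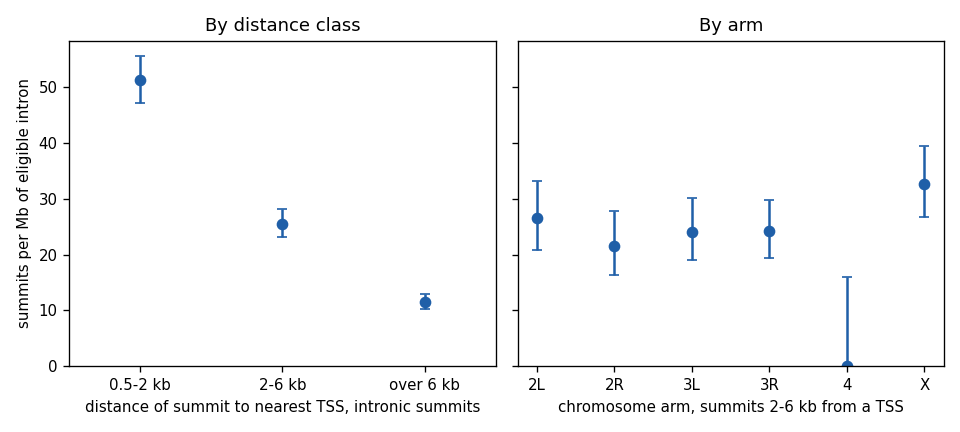
Intronic summits per Mb of eligible intron by distance class on the left and, for summits 2 to 6 kb from a TSS, by chromosome arm on the right; bars are 95% Poisson intervals of the counts. Density falls from 51.2 to 25.5 and 11.6 per Mb with distance, and the X arm stands highest at 32.6.

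Most members lay in the first intron of long genes. Intron 1 of at least 1 transcript of the host held 284 of them (69.4%, 64.7 to 73.9%), and intron 1 of every transcript that spans the summit held 168. When the eligible sequence was cut into 74018 tiles of 200 bp, 51.8% of the tiles lay in a first intron. The introns around the summits had a median length of 10387 bp, and their host genes one of 25904 bp, against 8866 bp for all protein-coding genes with eligible sequence. Longer genes offer more eligible sequence, and how far length accounts for these medians was not tested.

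The nearest TSS was the host's own for 293 members (71.6%), beside 58.5% of tiles. Of the other 116, the nearest TSS belonged to another protein-coding gene in 69 and to a non-coding gene in 47. The summit lay downstream of its nearest TSS in 65.5%, close to the 66.1% of tiles.

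The members fell into 290 host genes, 283 of them protein-coding. One summit was found in 209 hosts, 2 in 58, and 3 or more in 23, which together held 84 members. Another peak of the list lay within 1000 bp of 77 members (18.8%) and within 5000 bp of 249 (60.9%, 56.0 to 65.6%). Over the whole list these shares were 18.2 and 51.8%, for nearer intronic summits 23.9 and 62.6%, and for farther ones 9.56 and 36.5%. Of the hosts, 123 (42.4%, 36.7 to 48.3%) also had a peak within 500 bp of one of their own TSSs, beside 25.0% of the 4213 protein-coding genes with eligible sequence. The hosts were longer than those genes, and genes with more TSSs have more chances to count.

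ush, whose product is the Friend-of-GATA cofactor, held most, with 6 summits between 82.1 and 212.1 in signal value. Of these, 5 lay in its 13185 bp first intron, from 5723 to 12284 bp downstream of the 5′ end of the gene, and 1 lay 44654 bp from that end. The strongest (chr2L:485660-486063) ranked 415 in replicate 2 but 1966 in replicate 3. In all, 4 of the 6 were in both top lists. With summits of other classes the gene held 12.

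Raf held 5 members. The strongest were 857.7 at 2270 bp and 405.8 at 5244 bp from the 5′ end of the gene, and 178.9 lay between them at 3736 bp. A weaker one (82.9) followed at 5875 bp. The last (100.3) lay 23143 bp into the gene, 3655 bp from the TSS of lncRNA:CR34052, and ranked 5671 in replicate 2 but 2325 in replicate 3. All 5 were in 1 intron of 43637 bp.

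CHES-1-like also held 5, in introns of 14781 bp and 4789 bp, with signal values of 398.8, 194.2, 172.9, 128.2 and 94.4. Its strongest ranked 219 and 272 in the replicates. shn, which encodes a zinc finger protein that acts with the Smads in Dpp signalling, had 5 that all were in both top lists, with values from 109.5 to 219.1. Hr4 had 4 in a single first intron of 10387 bp, of 448.0, 351.0, 138.5 and 136.3, again all repeated.

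Further hosts of 4 were mew, the αPS1 integrin gene (131.1 to 192.2), and Kdm2, a histone demethylase gene (111.8 to 217.9). Another was RapGAP1, the gene of a GTPase-activating protein that acts on Rap1 (82.5 to 164.4). CG32264 (98.5 to 416.8) and tna (89.2 to 124.1) completed them. Each summit of mew, Kdm2, RapGAP1 and CG32264 was in both top lists, and 2 of 4 in tna. In Kdm2 all 4 lay in an intron of only 4170 bp. A pair in RapGAP1 was 199 bp apart and shared the same nearest entries in both replicates, so these may not be separate sites. Among hosts of 2, the pairs in MCU, CG9815 and Gug were also 199 bp apart. Those in Wwox and arr were 204 and 216 bp apart. Such pairs may not be separate sites either, yet each summit was counted as a member.

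**Figure D3:**
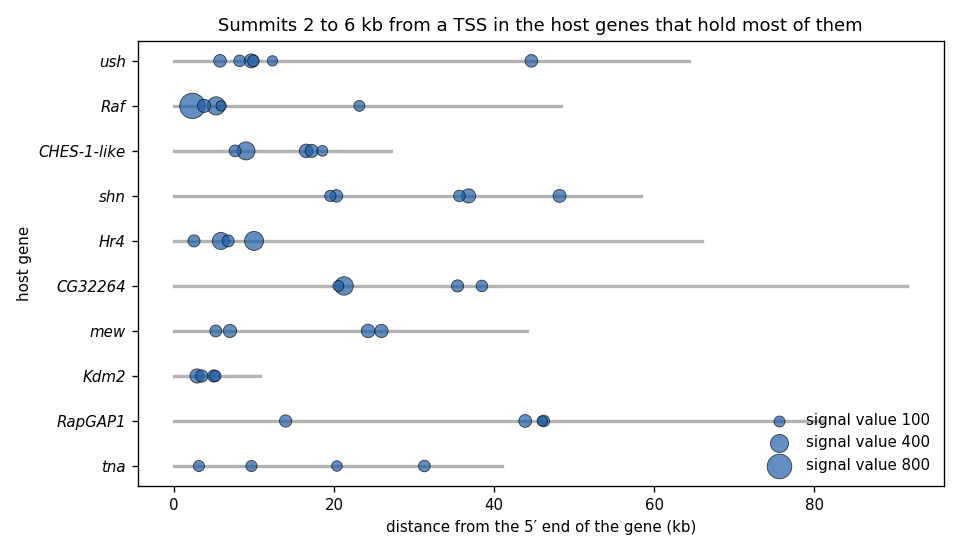
The 10 host genes with the most summits 2 to 6 kb from a TSS, drawn from their 5′ end (x axis, kb); grey lines are the genes and point areas grow with signal value. In ush and Raf most points crowd towards the 5′ end, while those of shn lie 19516 to 48176 bp into the gene.

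Among bZIP factor genes, the family of CG7786 itself, 4 of 9 with eligible sequence held a member. Pdp1, a gene of the PAR group that also acts in the circadian clock, had 3, all in introns that are first in a transcript and all in both top lists. They had signal values of 299.6 (chr3L:7851011-7851145, ranks 368 and 575), 135.2 (ranks 2030 and 1723) and 105.9 (ranks 2083 and 3337). vri, another clock gene, had one of 166.3 with ranks of 744 and 2563. Atf3 had 2, the stronger at 111.3 with ranks of 5677 and 2090, and cnc, the Nrf2 homologue, one of 80.3 with ranks of 3631 and 4517. None of the last 3 was in both top lists.

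Over 20 gene lists of pathways and functions, 67 of 379 genes with eligible sequence held a member (17.7%), beside 7.03% of the 4213 protein-coding genes that could. Among those 4213 genes the share rose with the length of eligible sequence. Split into 4 groups by that length, it was 0% (0 of 1054), 0.76%, 7.98% and 19.4%. Which groups the list genes fall in was not counted, and how far length accounts for the share over the lists was not tested. The median gene length of a list ran from 5.62 to 54.0 kb, and the shares were not adjusted for it. The lists are therefore described by their members, not ranked.

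Receptor kinase signalling had 9 of 29 genes with a member. Raf and aos, already described, and aop with 3 members led it. S, which encodes Star, a carrier of EGF receptor ligands in the secretory pathway, had 2, the stronger at 274.3 with ranks of 402 and 743. Raf and S are known to act for the pathway, aos and aop against it.

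The Dpp and activin list had 6 of 17. Beside shn these included dally, a glypican that binds the Dpp ligand (151.0, ranks 1573 and 1678), dpp itself (145.0, ranks 1682 and 1897) and sog, a secreted Dpp antagonist (135.2, ranks 2409 and 1606). All 3 were in both top lists. Of the Hippo list 3 of 12 held one: ex, an upstream activator (220.1), wts, the kinase that phosphorylates Yorkie (163.3), and kibra (145.9). The JAK/STAT and JNK list had 4 of 15, with msn, a kinase above JNK (184.1), puc, a JNK phosphatase (169.2), raw (135.7) and Socs36E, a feedback inhibitor of JAK/STAT (117.7). The raw summit is the one that had no entry in replicate 2.

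Ecdysone response and nuclear receptor genes had 5 of 20. After Hr4 came Eip75B (174.8, ranks 1161 and 1198) and Hr96 (109.9), a receptor of xenobiotic and lipid responses, both repeated, and Hr3 (100.3), which was not. Of insulin, TOR and growth genes 3 of 15 had one: Mnt, which opposes Myc (176.8), InR, the insulin receptor (163.1, ranks 537 and 4021), and Sik3, a kinase (88.7, ranks 10715 and 2445). The InR and Sik3 ranks lay far apart between replicates.

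Chromatin genes had 4 of 25. trx, the founding Trithorax gene, reached 337.5 with ranks of 405 and 323, and Psc, a subunit of Polycomb repressive complexes, 179.8 with ranks of 1336 and 1115. Mi-2, a remodelling ATPase, had 96.9, and ph-p 91.9. RNA-binding genes had 4 of 25, with shep (326.9, ranks 470 and 355), Rbfox1 (173.0), bru2 (140.7) and cpo (104.6). The summits given for ph-p (rank 4641 in replicate 3) and cpo (rank 4147 in replicate 2) were not in both top lists. The leading genes of both gene lists ranked within the first 500 of each replicate.

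Neuroblast and glial regulators had 4 of 12: grh (252.7, ranks 683 and 598), a late neuroblast and epidermal factor, pnt (94.1), the ETS activator, pros (91.5) and brat (90.2). The summits given for pnt (rank 4724 in replicate 3) and brat (rank 6420 in replicate 2) were not in both top lists. Axon guidance and adhesion genes had 7 of 43, led by kirre (320.6, ranks 353 and 431), side (227.7), Fas3 (218.1) and mew (192.2). Wingless and Hedgehog genes had 3 of 28, arr, the Wingless coreceptor (153.2), Wnt4 (130.05) and fz (105.8).

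Segmentation and Hox genes had 2 of 16, bowl (106.1) and Antp (93.0), with an exact interval of 1.55 to 38.3%, and mesoderm and muscle regulators 2 of 17, Mef2 (149.2) and nau (101.6). Ion channel and synapse genes had 2 of 31, dnc (255.7), a cAMP phosphodiesterase gene, and Shab (89.8). The Shab summit ranked 4435 in replicate 3 and was not in both top lists. The Notch list had mam (243.5) of 14, the GATA list ush of 6, and the cell cycle list E2f1 (108.4) of 8. The Toll and Imd list had 0 of 7, which allows a share of up to 41.0%.

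The site that PAR proteins prefer was present in few members. TTAYGTAA occurred in 11 of 409 windows (2.69%, 1.35 to 4.76%), searched on both strands, beside 1.69% of tiles, a share inside that interval. Of the whole list 1.95% held it, of nearer intronic summits 2.22% and of farther ones 1.02%. Besides CG32486 these members lay in BicD (211.2), sli (196.2), for (153.0), drn (147.0) and Kdm2 (142.2). The others lay in CG13004 (134.9), comm3 (107.9), CG6983 (99.5), Antp (93.0) and CG43658 (86.2). Of the 11, 10 were in both top lists, against 291 of the 398 members without the site. Of 11 occurrences 4 lay within 25 bp of the summit.

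Of the 22 sites searched, forkhead and AP-1 sites stood above the tiles by the most percentage points. The forkhead site GTAAACA was in 43 members (10.5%, 7.71 to 13.9%) and 4.40% of tiles, with 7.47% at TSSs, 7.35% of nearer and 4.44% of farther intronic summits. Of its 48 occurrences 37.5% (24.0 to 52.6%) were within 25 bp of the summit, where 25.8% of the possible places are, a share inside that interval. The AP-1 site TGANTCA was in 35 (8.56%, 6.03 to 11.7%) and 4.64% of tiles. At TSSs 4.11% held it, of nearer intronic summits 5.30% (3.63 to 7.44%) and of farther ones 6.83% (4.22 to 10.3%). The intervals of both intronic classes overlap that of the members. Neither was commonest in the strongest peaks: the forkhead site was in 3.88% of the strongest 103 members and in 13.7, 14.7 and 9.80% of the 3 groups of 102 after them, and AP-1 was in 8.74, 5.88, 6.86 and 12.7%.

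Zelda sites (CAGGTAG), bound by the factor that opens the early embryonic genome, were in 8 members (1.96%, 0.85 to 3.82%) against 0.95% of tiles. The DRE (TATCGATA), a promoter site of housekeeping genes, was in 0 of 409, which allows up to 0.9% and so takes in the 0.43% of tiles. Of nearer intronic summits 0.17% held it, of farther ones 0.68% and of TSS-proximal peaks 8.45%. Homeodomain (TAATTA, 14.9% against 14.9% of tiles) and GATA sites (AGATAAG, 3.18% against 2.53%) were near the tiles. No CRE (TGACGTCA) and no Ets site (CCGGAAGT) was found, while 0.33 and 0.28% of tiles have one. The remaining sites gave shares whose intervals take in that of the tiles: 0.24% for C/EBP (TTGCGCAA), 3.42% for GAGA factor (GAGAGAG), 3.18% for the repeat CACACACA, 1.96% for CACGTG, 5.38% for CAGCTG, 7.09% for TEAD (GGAATG) and 7.33% for STAT (TTCNNNGAA). The same held for Grainyhead (AACCGGTT, 0.24%), nuclear receptor (CAAGGTCA, 0.73%), Su(H) (GTGGGAA, 2.20%), Mad (GCCGNCGC, 0.49%), POU (ATGCAAAT, 3.91%) and HSF sites (GAANNTTC, 6.36%).

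A group of short related words was far more common. Among all 7-base words present in at least 25 members, the 10 with the highest ratio to the tiles overlapped around the core CACTG, or CAGTG on the other strand. They were picked for that ratio in these members, so their excess is a description. CAGTGTA led with 49 members (11.98%, 9.0 to 15.5%) against 1.88% of tiles, a ratio of 6.38. CACTGTA was in 10.5% of members and 1.73% of tiles, CACTGAG in 10.02% and 1.82%, ACTGTAC in 7.82% and 1.42%, and ACAGTGG in 12.7% and 2.34%. Shares of the others were 10.3% for CACAGTG, 9.78% for ACACTGA, 8.80% for ACTGAGA, 7.58% for ACAGTGA and 7.33% for ACTGTGC, where tiles had between 1.84 and 2.19%. At least 1 of the 10 was in 171 members (41.8%) and in 13.1% of tiles.

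**Figure D4:**
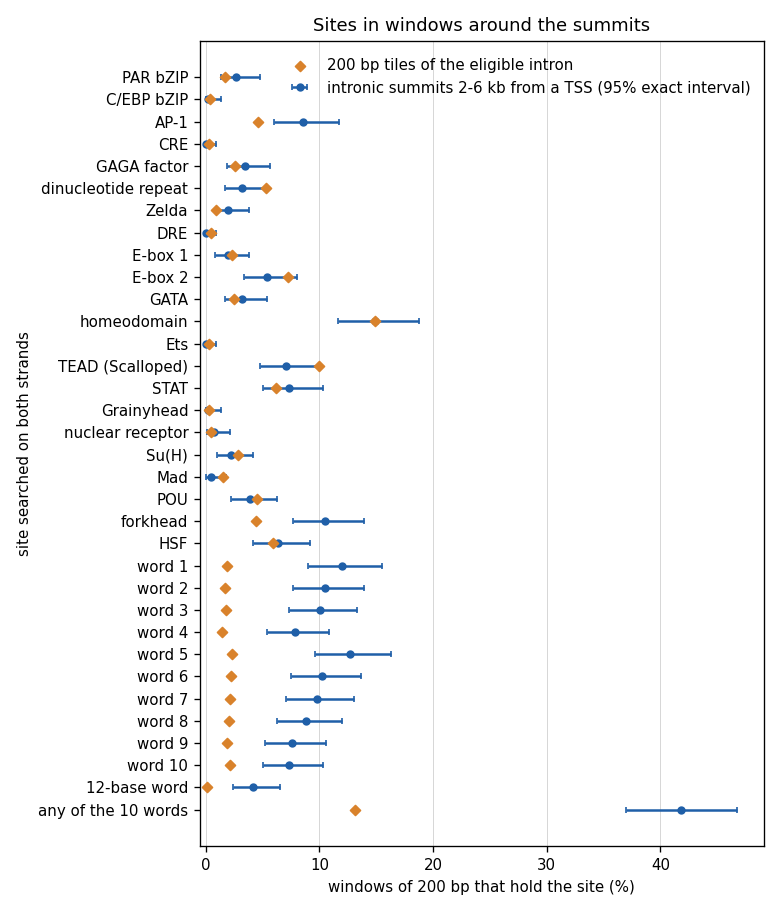
Share of 200 bp windows that hold each site, on the x axis in percent, for the 409 intronic summits (points with 95% exact intervals) and for tiles of the eligible intron (diamonds). E-box 1 and 2 are CACGTG and CAGCTG, the dinucleotide repeat is CACACACA, and words 1 to 10 are in the order of the text. The intervals of the words and of the forkhead and AP-1 sites lie wholly to the right of their tiles. Those of the other sites take in the share of their tiles. Any of the 10 words reaches 41.8% against 13.1%.

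The words were not confined to these introns. One of the 10 was in 42.1% of nearer and 37.2% of farther intronic summits, in 37.8% of intergenic and in 25.5% of TSS-proximal ones. From the strongest 103 to the weakest 102 members the share went from 52.4% through 44.1 and 40.2% to 30.4%. Members with a word had a median signal value of 135.2 and were in both top lists in 79.5% of cases, beside 114.5 and 69.3% for those without.

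The core itself was counted along the peak, so words that lack it enter only where it overlaps them. CACTG on either strand occurred 24.7 times per 100 members between 100 and 50 bp on the left of the summit and 26.7 times between 50 and 100 bp on the right, but 13.4 and 14.4 times in the 50 bp next to it. Tiles had 8.23 per 50 bp. Beyond 300 bp the members came to between 4.40 and 9.05. Nearer intronic and intergenic peaks also had their 2 highest bins there, while peaks at TSSs had 1 maximum over the summit. Anywhere within 100 bp of the summit, the core was in 54.8% of members, 53.8% of nearer and 54.9% of farther intronic summits, and in 27.3% of tiles. In 48 members (11.7%, 8.78 to 15.3%) it was on both sides of the summit, beside 2.26% of tiles, 10.9% of nearer and 13.7% of farther intronic summits. The core came from words picked in these members, and how far the single shares account for such pairs was not tested. The sequence from CG33158 shows such a pair in the same orientation, at nearly the same distance from the summit, and that from aop one in opposite orientation.

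**Figure D5:**
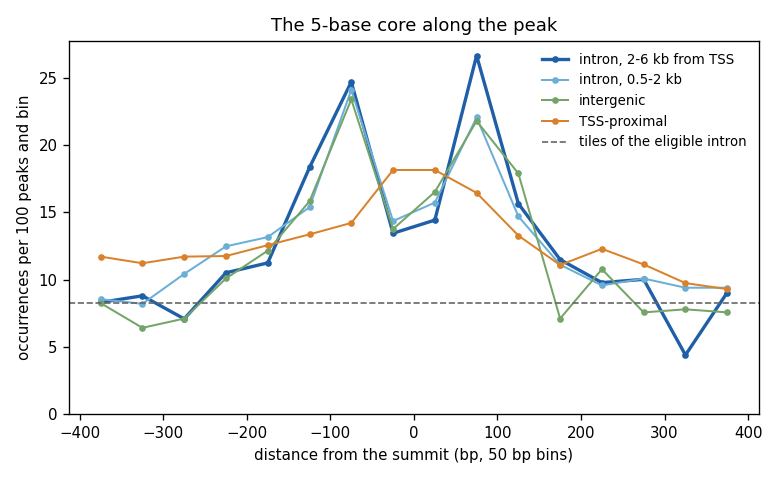
Occurrences of the 5-base core on either strand per 100 peaks in 50 bp bins, against distance from the summit in bp, for 4 classes of peaks; the dashed line is the mean over tiles of the eligible intron. The thick line for summits 2 to 6 kb from a TSS rises to 24.7 and 26.7 on either side of a lower centre.

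The most frequent 12-base word, CACTGAGAGAAA, belongs to this family. This word was picked for its count in these members, so its excess over tiles is a description and its interval ignores that choice. It was in 17 members (4.16%, 2.44 to 6.57%) and 0.13% of tiles, with 688 copies over the 6 arms, and in 1.71% (0.82 to 3.12%) of nearer and 4.78% of farther intronic, 3.90% of intergenic and 0.45% of TSS-proximal summits. Members with it lay in bves (327.1), aop (at both stronger summits), Psc, drongo, Wnt4, fz and cv-c, among others. An annotated transposable element overlapped the window of only 1 member, in chn, or 0.24%, against 7.31% of tiles.

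In base composition the windows of the members had a median GC content of 36.0% (quartiles 32.5 and 39.5%), below the 40% of tiles (34.5 and 46%) and near the 36.5 and 36.0% of the other intronic classes. Tiles were not matched to members on GC content, and its part in the shares of AT-rich sites was not tested.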

How the data were processed

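ChIP-seq peaks of CG7786-eGFP from whole embryos were analysed from the 4 lists the authors deposited on dm6, covering replicate 2, replicate 3, their pool and the final list. Per the labels' own text, the final list is the optimal set of the irreproducible discovery rate procedure (IDR), drawn from the relaxed lists of 30000 peaks each. Aligner, peak caller, thresholds and versions remain not given in the sources used here. Each deposited signal value is a score for its peak, used only to rank and describe peaks within a list. Lists on dm3 and the control were not used here.

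Genes came from Ensembl release 115, without transposable elements, and sequence from RefSeq Release 6. The members and gene lists were chosen with earlier results of these data known. All 511 names in the 20 lists were matched, 6 of them through a current name. The counts of 1 list are not reported here. Every figure is a description: 2 libraries of 1 group allow no test. Shares carry 95% exact binomial intervals and densities Poisson intervals. Scripts used Python 3.11.15, NumPy 2.4.6, SciPy 1.17.1 and pandas 2.3.3, and the position rules were tested on simulated data. Named are the 20 strongest members in both top lists, at most 10 hosts with 3 or more members, and at most 4 hosts per list. Other genes were named after their values were seen.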

Additional observations from a re-analysis of the deposited data

How the results depend on the processing

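With 1 replicate's own 4045 strongest peaks in place of the IDR list, the median signal value was 52.8 to 73.1, on other scales. The number of members, their first-intron and host shares, density and number of hosts stayed within 1.5 times or within their counting interval. So did the repeated share, at 77.5% without replicate 3 and 72.6% without replicate 2. Each member is then in its own replicate's top list by construction, so that share asks only about the other replicate. The 2022 strongest IDR peaks left 185 members, 98.9% repeated, with a median of 191.4, 11.5 per Mb and 144 hosts. Fewer members, fewer hosts and a lower density follow from the shorter list. Of these hosts 27.1% had a TSS peak, and how far the shorter list accounts for that share was not tested. The share over all genes with eligible sequence was counted with the full list only. With protein-coding genes only, the nearest TSS was the host's for 78.9%, and in a narrower range, from 2.5 to 5 kb, 260 members were left. A TSS window of 250 bp gave 32.4% of hosts with a TSS peak and one of 1000 bp gave 51.0%. In all, 36 of 48 alternative values of these results stayed within those limits. So did 81 of 110 of the shares of fixed sites and 48 of 60 of the counts of gene lists. The site shares moved mostly with the window: in 100 and 400 bp AP-1 was in 3.91 and 14.4% of members and GAGA factor in 0.73 and 11.2%. The list counts moved mostly with the shorter list, where receptor kinase genes with a member were 4. Among the 2022 strongest the forkhead share was 7.57%. In windows of 100 and 400 bp it was 6.60 and 14.7%. Tiles were of 200 bp only, so the shares at 100 and 400 bp have no tile share to be set against. No paired analysis was possible because there is 1 group. Depth is unknown, so weak and absent binding cannot be told apart, and only 2 libraries stand behind every value.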
